A study of Rattus norvegicus with 4 samples.

Results

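C-type natriuretic peptide (CNP), its receptors and the kinases that act on its second messenger were described in the cartilage of Sprague-Dawley rats aged 8 to 10 weeks. The group was defined by symbol as Nppc, Npr2, Npr1, Npr3, Prkg2 and Prkg1, and all 6 were listed among the 13554 genes of the deposited table. Messenger RNA had been sequenced from articular cartilage, which covers the bone ends in joints, and from xiphoid cartilage, the lower tip of the sternum, with 2 libraries per tissue. The labels give no genotype, treatment or allele for either tissue, and nothing in them says which joint was sampled, of which sex the rats were, or whether a library stands for a separate animal. P-values therefore set the tissue difference against the spread among these particular libraries, and part or all of that spread may be technical.

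CNP is a short secreted peptide that binds the receptor NPR2, a guanylyl cyclase in the cell membrane. The receptor makes cyclic GMP (cGMP), which activates cGMP-dependent protein kinases. In growth cartilage of mice, loss of CNP or of NPR2 gives dwarfism, and the pathway opposes signalling from the receptor FGFR3 through the MAP kinases. NPR3 lacks a cyclase and removes the peptides from the cell surface, and NPR1 is the receptor of the atrial and brain peptides. Prkg2 is the kinase gene disrupted in the Komeda miniature rat, a dwarf strain in which chondrocytes of the growth plate are late to become hypertrophic.

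The libraries held between 7351006 and 8434820 estimated read counts each. Levels are given as CPM, the count relative to the total of its library after scaling between libraries. A gene's level is not corrected for transcript length, so a level can be compared between tissues but not between genes. Of 16 listed markers of chondrocytes and cartilage matrix, 15 were in the table, none of them was at 0 in either tissue, and their summed level was 132190 and 111338 CPM in the articular libraries against 40334 and 37647 CPM in the xiphoid libraries. Most of that gap lay in Col2a1, the main cartilage collagen gene, and the sums without it were 28796 and 25665 CPM in articular against 23987 and 22785 CPM in xiphoid cartilage. Of the 15, 7 were called toward articular and 4 toward xiphoid cartilage (Ucma, Cnmd, Matn1 and Comp). The shares over all tested genes were 25.0% toward articular and 24.5% toward xiphoid cartilage.

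The type II kinase gene Prkg2 was the 1 member of 4 tested that passed the threshold, and it was 121-fold higher in articular cartilage. The receptor Npr2 was found in all libraries, at 84.8 ± 0.144 CPM in articular cartilage against 65.9 ± 1.94 CPM in xiphoid cartilage (mean ± SD, n = 2 each). The other kinase, Prkg1, was at 14.0 ± 0.00257 CPM in articular cartilage against 14.7 ± 3.52 CPM in xiphoid cartilage (n = 2 each) and did not pass, and Npr1 missed the threshold on the xiphoid side. The ligand Nppc and the clearance receptor Npr3 had too few counts for a test. At an adjusted p under 0.05, 49.5% of the 11202 genes tested in the table differed between the cartilages, 25.0% toward articular and 24.5% toward xiphoid cartilage, so that a call by itself is common in this comparison.

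**Figure D1:**
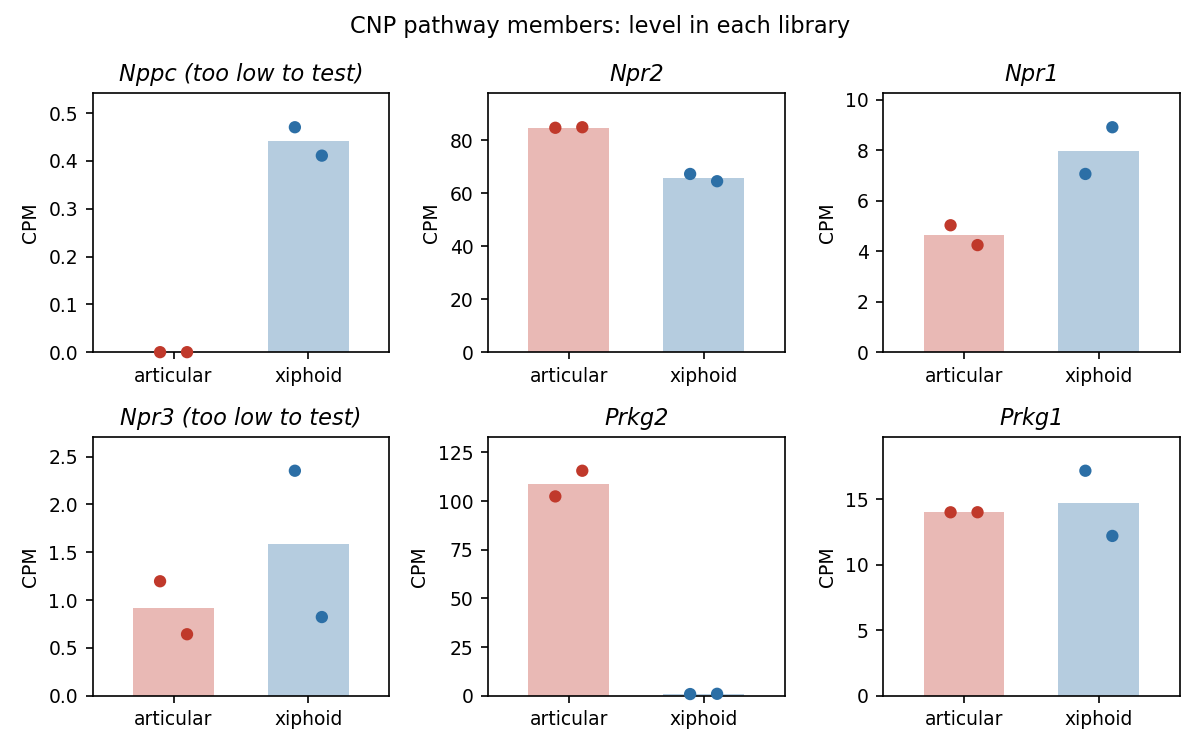
Level of each member in CPM (vertical axis, a separate linear scale per gene, starting at 0) in articular (red, left) and xiphoid (blue, right) cartilage; points are libraries and bars are means of 2. The Prkg2 points lie at 102 and 116 CPM in articular cartilage against 0.823 and 0.959 CPM in xiphoid cartilage, while the Prkg1 points of the tissues overlap.

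Nppc (Entrez gene 114593) encodes the CNP precursor. It had 0 counts in both articular libraries and 4 and 3 counts in xiphoid replicates 1 and 2. Every read of the ligand therefore came from the xiphoid side, at a level of 0.470 and 0.411 CPM. A count of 0 over both articular libraries allows up to 3 counts, or 0.186 CPM, so Nppc was at least 2.38-fold lower in articular cartilage. That bound covers counting error in the articular libraries only, and not the error of the 7 xiphoid counts. The gene did not reach the count needed for the test. Fitted without the low-count filter it did not pass, with an unadjusted p of 0.0548 and an adjusted p of 0.109.

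Npr2 (Entrez gene 116564), the CNP receptor, had 708 and 661 counts in the articular libraries against 572 and 471 in the xiphoid libraries. Scaled, these were 84.7 and 84.9 CPM in articular cartilage against 67.3 and 64.5 CPM in xiphoid cartilage. Both articular libraries lay above both xiphoid libraries, and the tissues did not overlap. The difference was small, 1.29-fold (log2 fold change 0.36, SE 0.15), and it missed the threshold (adjusted p = 0.0587, edgeR quasi-likelihood test, articular against xiphoid). It passed with upper-quartile scaling (adjusted p = 0.0373) and with the test limited to genes of at least 5 CPM on average (adjusted p = 0.0475). With each library left out in turn the adjusted p ran between 0.0734 and 0.285.

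Npr1 (Entrez gene 24603) encodes the receptor for atrial and brain natriuretic peptides, a cyclase best known from vessels, kidney and fat. It was at 5.02 and 4.24 CPM in the articular libraries against 7.06 and 8.90 CPM in the xiphoid libraries, from 42, 33, 60 and 65 counts in that order. The tissues did not overlap, and the fitted level was 1.71-fold lower in articular cartilage (log2 fold change -0.78, SE 0.31), which also missed the threshold (adjusted p = 0.0522). With DESeq2, another test, the adjusted p was 0.160. Markers of endothelial cells, which express Npr1, summed to 247 and 231 CPM in the articular libraries and to 357 and 350 CPM in the xiphoid libraries. None of 12 was at 0 in either tissue, and 6 were called toward xiphoid and 1, Kdr, toward articular cartilage. Among all tested genes, 24.5% were called toward xiphoid and 25.0% toward articular cartilage. Markers of adipocytes, which express Npr1 too, summed to 101 and 88.6 CPM in articular cartilage and to 3189 and 2589 CPM in xiphoid cartilage, where 9 of 9 tested were higher. Lep was the adipocyte marker at 0 in both articular libraries. Their part in the level of Npr1 was not tested. In such bulk samples, fewer cells of a type and less RNA per cell cannot be told apart.

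Npr3 (Entrez gene 25339), the clearance receptor, had 10 and 5 counts in the articular libraries against 20 and 6 counts in the xiphoid libraries. Its levels were 1.196 and 0.642 CPM in articular cartilage against 2.35 and 0.822 CPM in xiphoid cartilage. These ranges overlapped, and the xiphoid libraries stood further apart from each other than the tissue means did. The ratio of pooled levels, articular over xiphoid, was 0.565 with an exact 95% counting interval of 0.278 to 1.11, which covers counting error only. Without xiphoid replicate 1 the log2 ratio turned from -0.82 to 0.18, so no direction can be given for Npr3. In the fit without the low-count filter its adjusted p was 0.420.

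The balance of signalling to clearance receptor was followed as the ratio of Npr2 to Npr3 counts within each library, which does not depend on scaling. It was 70.8 and 132 in the articular libraries against 28.6 and 78.5 in the xiphoid libraries. Counts of Npr2 far exceeded those of Npr3 in every library, although the transcripts may differ in length and the ratio is therefore not a ratio of molecules. The tissues overlapped, and the mean log2 ratio differed by 1.03, articular minus xiphoid (6.60 ± 0.637 against 5.57 ± 1.03, SD, n = 2 each; exact two-sided permutation test, p = 0.667). With 2 libraries against 2, the exact permutation test cannot go below p = 0.333.

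Prkg2 (Entrez gene 25523), a membrane-anchored kinase of chondrocytes, intestine and brain, had 856 and 900 counts in the articular libraries against 7 and 7 in the xiphoid libraries. These were 102 and 116 CPM in articular cartilage against 0.823 and 0.959 CPM in xiphoid cartilage. The tissues were far apart and the libraries within each tissue close together. The log2 fold change was 6.92 (SE 0.25, adjusted p = 9.05e-10, edgeR quasi-likelihood test), which placed Prkg2 at rank 66 of 11202 tested genes when ordered by the fold toward articular cartilage. Leaving out each library in turn kept the log2 fold change between 6.82 and 7.04. The xiphoid level stood above the 0.190 CPM that a count of 0 over both xiphoid libraries would allow, so Prkg2 reads were present there at a low level.

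**Figure D2:**
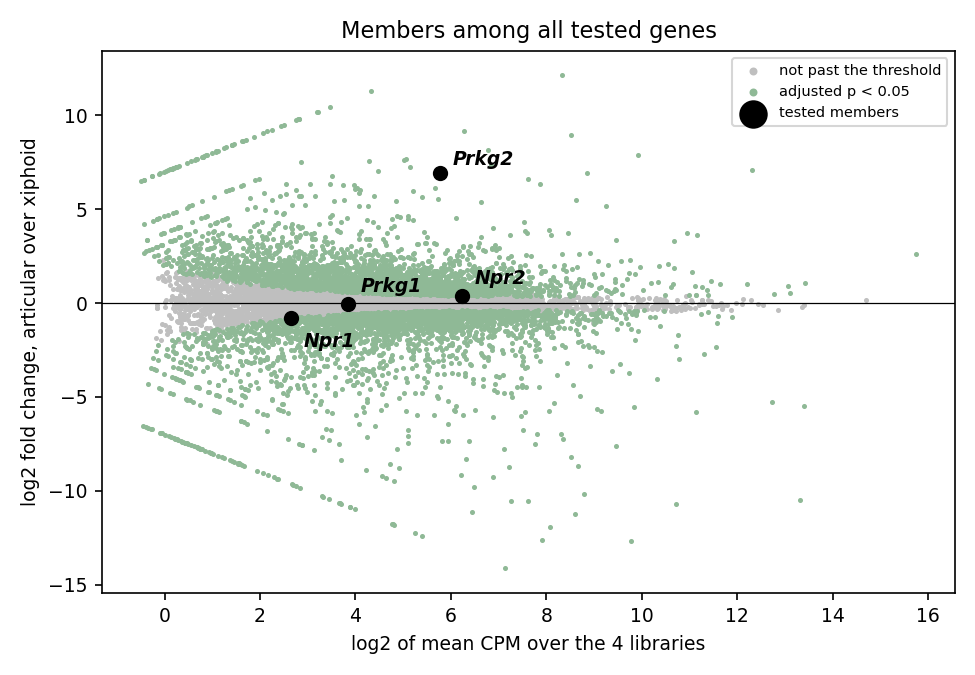
Log2 fold change of articular over xiphoid cartilage (vertical axis) against the log2 of the mean CPM over the 4 libraries (horizontal axis) for all 11202 tested genes; green points passed an adjusted p under 0.05, grey points did not, and black points are the 4 tested members. Prkg2 lies at 6.92, far above the bulk of genes, and Npr2, Prkg1 and Npr1 lie at 0.36, -0.07 and -0.78.

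Genes of chondrocyte hypertrophy and mineralization were high in the same libraries as Prkg2. Of 14 listed, 12 were in the table and all 12 of those were higher in articular cartilage. This list was added after values were seen, so the count is a description of these genes only. Over all tested genes, 25.0% were called toward articular cartilage. The summed level of the 12 was 10806 and 10639 CPM in the articular libraries and 490 and 504 CPM in the xiphoid libraries. Without Spp1, the highest of them, the sums were 7026 and 5989 CPM in articular against 153 and 152 CPM in xiphoid cartilage. Among the 12, Ihh, whose product is the hedgehog signal of prehypertrophic cells, was at 248 and 209 CPM in articular against 1.76 and 0.959 CPM in xiphoid cartilage. Markers of several types of bone and marrow cells were high there too. Osteoblast markers summed to 9721 and 8966 CPM in articular cartilage against 5986 and 6517 CPM in xiphoid cartilage, with Phex at 0 in xiphoid cartilage. Col1a1, a collagen gene that fibroblasts also express, made up nearly all of the xiphoid sum and was not called. The other 6 osteoblast markers were all called toward articular cartilage, and summed to 4205 and 2986 CPM there against 24.1 and 22.7 CPM in xiphoid cartilage. The osteoblast list shares 3 genes with the hypertrophy list, Alpl, Ibsp and Sp7. Osteoclast markers summed to 1327 and 1340 CPM in articular cartilage against 151 and 143 CPM in xiphoid cartilage, with Atp6v0d2, Calcr and Oscar at 0 in the xiphoid libraries. Erythroid markers summed to 6788 and 6794 CPM in articular cartilage against 567 and 616 CPM in xiphoid cartilage. Neutrophil markers summed to 225 and 217 CPM in articular cartilage against 10.6 and 12.7 CPM in xiphoid cartilage, and Mpo was not called. Macrophage markers differed less, at 153 and 151 CPM in articular against 120 and 111 CPM in xiphoid cartilage. Of 8 tested macrophage markers, 2 were called toward articular and 1, C1qc, toward xiphoid cartilage. The part of any of these cells in the level of Prkg2 was not tested.

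**Figure D3:**
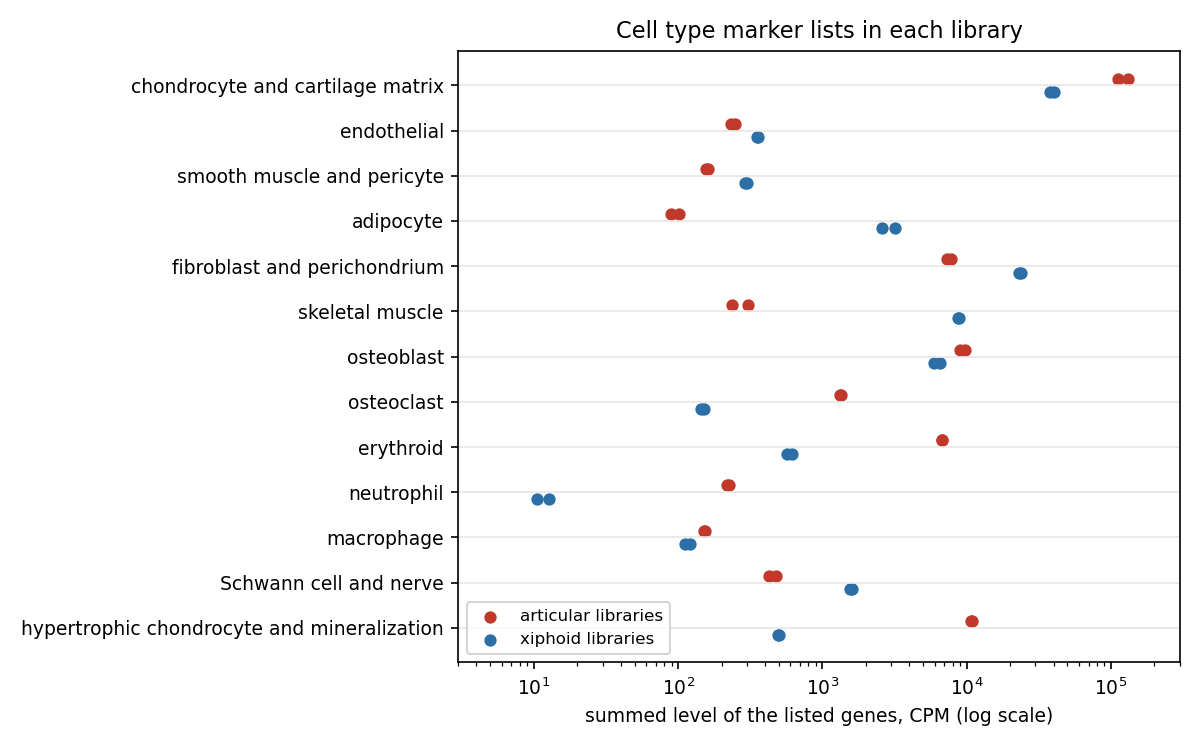
Summed level of each list of cell type markers in CPM (horizontal log axis) in the articular libraries (red, upper points) and xiphoid libraries (blue, lower points), with 2 points per tissue. Hypertrophy, osteoclast, erythroid and neutrophil markers lie to the right in articular cartilage, where Prkg2 is high, and adipocyte and skeletal muscle markers lie to the right in xiphoid cartilage.

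Prkg1 (Entrez gene 54286), the cytosolic kinase of smooth muscle and platelets, was at 14.0 and 14.0 CPM in the articular libraries against 17.2 and 12.2 CPM in the xiphoid libraries. The articular values lay between the xiphoid values. Its log2 fold change was -0.07 (SE 0.24, adjusted p = 0.818), and without xiphoid replicate 1 it was 0.22, so neither direction can be given. The kinases were also set against each other within each library. The ratio of Prkg2 to Prkg1 counts was 7.32 and 8.26 in the articular libraries against 0.0479 and 0.0787 in the xiphoid libraries. Its log2 mean was 2.96 ± 0.123 in articular cartilage and -4.03 ± 0.505 in xiphoid cartilage (SD, n = 2 each), a difference of 6.98 or 127-fold. The exact two-sided permutation test gave p = 0.333, the smallest that 2 libraries against 2 allow. As the fitted change of Prkg1 was small (-0.07), this difference mostly restates that of Prkg2. Transcripts may differ in length, so this ratio too is not a ratio of molecules. Markers of smooth muscle and pericytes, which express Prkg1, summed to 160 and 156 CPM in articular cartilage against 290 and 299 CPM in xiphoid cartilage. Of 10 tested, 5 were higher in xiphoid and 2 in articular cartilage, against 24.5% and 25.0% over all tested genes. None of the 11 in the table was at 0 in either tissue, and their part in the level of Prkg1 was not tested. Prkg1 overlaps Cstf2t in the RefSeq annotation, where whole gene spans and not exons were compared. Whether reads of Cstf2t were counted with Prkg1, for instance if strand was not used, cannot be told. For both kinases the count summed a RefSeq transcript and a transcript assembled by the submitters' pipeline.

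**Figure D4:**
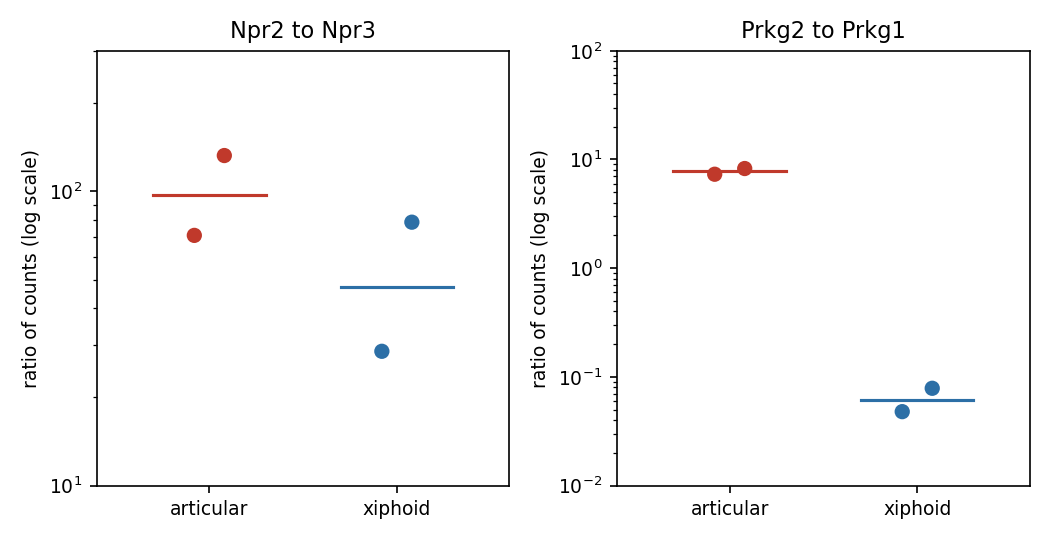
Ratio of counts within each library (vertical log axis) for Npr2 to Npr3 (left panel) and Prkg2 to Prkg1 (right panel); points are libraries, articular in red on the left and xiphoid in blue on the right, and lines are means of the log2 ratios. Prkg2 to Prkg1 was 7.32 and 8.26 in articular against 0.0479 and 0.0787 in xiphoid cartilage, and the Npr2 to Npr3 points overlap.

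The 3 genes nearest to each tested member were found from the 4 library levels alone, as the root mean square distance of centred log2(CPM + 1) among genes of at least 10 CPM on average. Nearest to Prkg2 were S100a8, a neutrophil protein, at a distance of 0.199, Bglap, the osteocalcin gene, at 0.207, and Acp5, the acid phosphatase of osteoclasts, at 0.224. Nearest to Npr2 were Pdia6, Ddx42 and Brd7 (0.0169 to 0.0178), to Npr1 Naaa, Fggy and Tecr (0.0287 to 0.0400), and to Prkg1 Acyp2, Rps27 and Polr3e (0.0314 to 0.0375). With 4 libraries of 2 tissues, such a distance says nothing of shared function or control.

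Around these members, a list of 61 other genes of natriuretic peptide and cGMP signalling was followed, of which 51 were in the table and 39 were tested. Toward articular cartilage 14 were called and toward xiphoid cartilage 11, and the other 14 did not pass. Too low to test were Gucy1a2, Gucy1b2, Gucy2c, Gucy2d, Gucy2g, Nos1, Pde1c, Pde6a, Pde6c, Cnga3, Cnga4 and Cngb1. Listed but not analysed here were Nppa, Nppb, Gucy2e, Gucy2f, Pde6b, Cnga1, Cnga2, Cngb3, Braf and Irag2. The called genes made up 64.1% of those tested, against 49.5% over all tested genes. The median log2 fold change of the list was -0.10, against -0.02 for all tested genes, and the pathway genes had no common direction. The 4 tested members had a median of 0.14. Fibroblast and perichondrium markers summed to 7336 and 7847 CPM in the articular libraries against 23921 and 23145 CPM in the xiphoid libraries. Of 11 such markers, 7 were called toward xiphoid and 1, Dcn, toward articular cartilage, against 24.5% and 25.0% over all tested genes. The sum rests largely on Gsn, and without it was 6984 and 7510 CPM in articular against 10042 and 10406 CPM in xiphoid cartilage. The bone and marrow markers given beside Prkg2 moved with those called toward articular cartilage, and the part of these cells in the pathway genes was not tested.

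**Figure D5:**
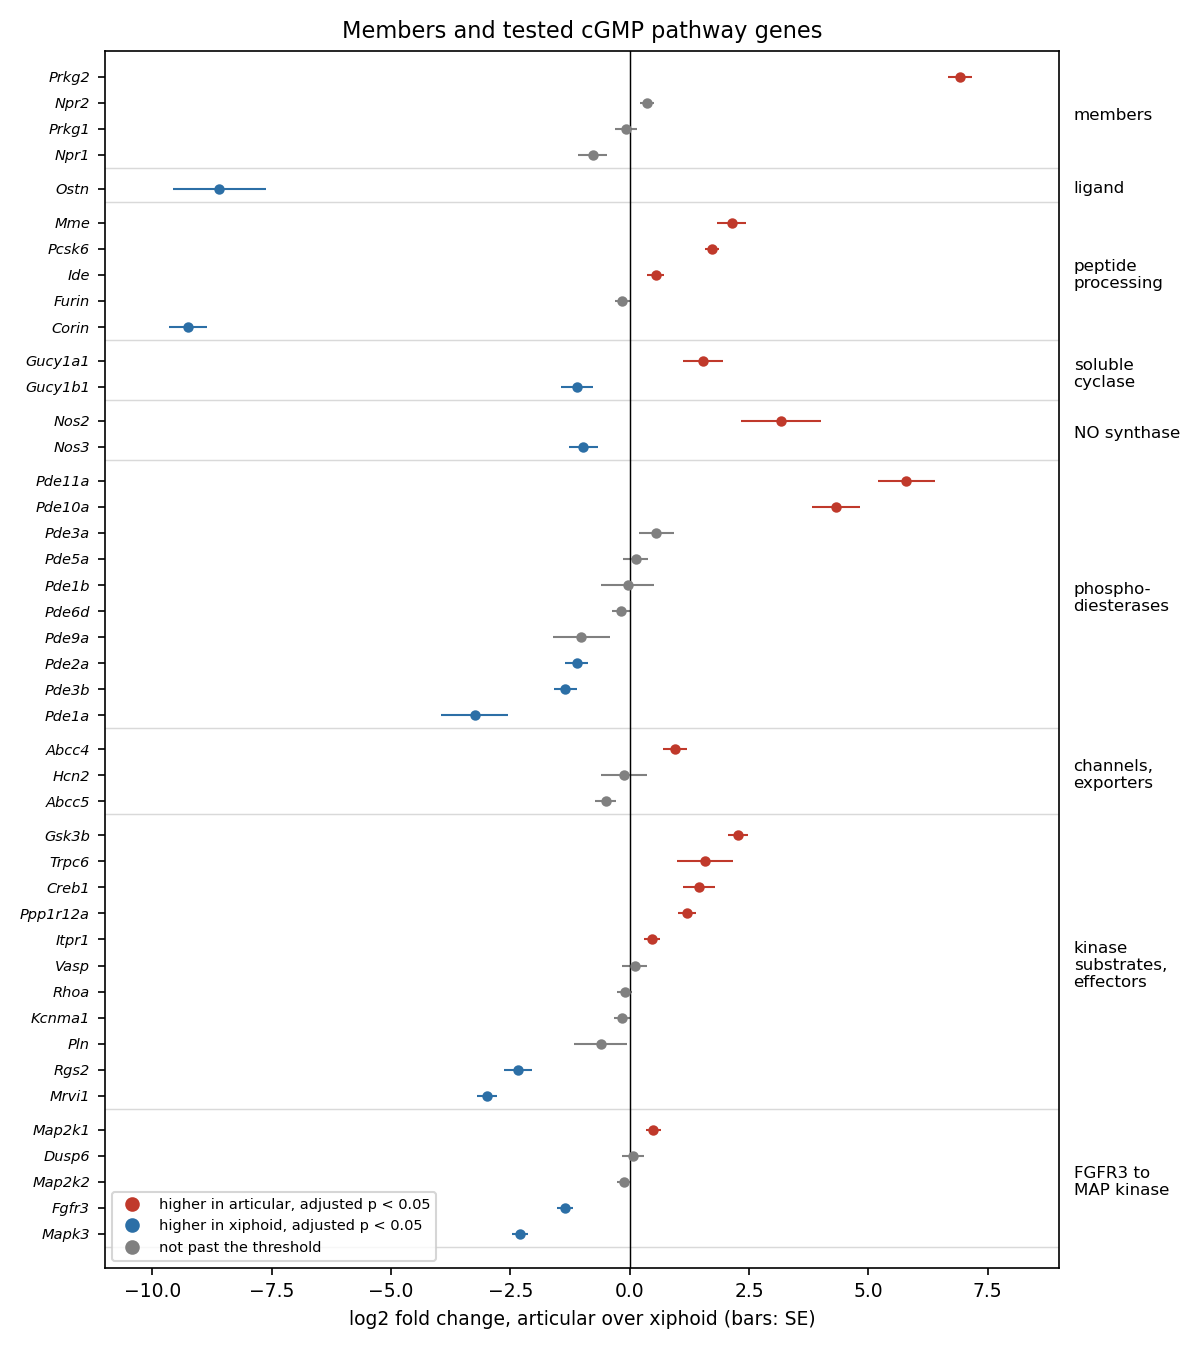
Log2 fold change of articular over xiphoid cartilage (horizontal axis, bars are standard errors of the fit) for the 4 tested members and the 39 tested pathway genes, grouped by role; red points were called toward articular and blue points toward xiphoid cartilage (adjusted p under 0.05), and grey points did not pass. Prkg2, Pde11a and Pde10a stand far to the articular side and Corin and Ostn far to the xiphoid side, where the fitted value of Ostn rests on 0 articular counts and depends on the fit's prior.

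The other ligand that could be tested differed between the tissues. Ostn, which encodes osteocrin, a secreted peptide of bone and muscle that occupies NPR3, had 0 counts in both articular libraries and 58 and 38 counts in the xiphoid libraries, and was at least 32.7-fold lower in articular cartilage (adjusted p = 2.63e-05, edgeR). The xiphoid libraries also held more skeletal muscle marker RNA, at 303 and 235 CPM in articular cartilage against 8746 and 8825 CPM in xiphoid cartilage, with Myh2 and Myh7 at 0 in the articular libraries. Most of the articular sum was Tnni2, at 269 and 211 CPM there against 253 and 233 CPM in xiphoid cartilage, which was not called. The other 10 in the table were called toward xiphoid cartilage, against 24.5% of all tested genes. The part of muscle cells in the level of Ostn was not tested.

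Enzymes that process or break down the peptides split, 3 of 5 tested being higher in articular cartilage and 1 in xiphoid cartilage, while 1 missed the threshold. The called genes made up 80% of these 5, against 49.5% over all tested genes. Corin, the membrane protease that activates the atrial peptide precursor, had 0 and 6 counts in the articular libraries against 2009 and 1738 in the xiphoid libraries. These were 0 and 0.771 CPM in articular against 236 and 238 CPM in xiphoid cartilage (adjusted p = 1.10e-08, log2 fold change -9.26, SE 0.40). All of its articular counts came from replicate 2, and without that library the fitted value was -13.90, which rests on a count of 0 and depends on the fit's prior. Mme, which encodes neprilysin, a protease that degrades CNP, was at 15.9 and 24.1 CPM in articular against 3.53 and 5.62 CPM in xiphoid cartilage (adjusted p = 1.13e-04, log2 fold change 2.14, SE 0.31). The proprotein convertase gene Pcsk6 was 3.32-fold higher in articular cartilage, at 511 and 541 against 160 and 156 CPM (adjusted p = 1.21e-06). Ide, the insulin-degrading enzyme, was 1.46-fold higher in articular cartilage (adjusted p = 0.0278), a call that was lost without articular replicate 2 (adjusted p = 0.119) and without xiphoid replicate 2 (adjusted p = 0.203). Furin, the convertase that cleaves the CNP precursor, was at 282 ± 46.1 CPM in articular cartilage against 314 ± 14.1 CPM in xiphoid cartilage and did not pass (adjusted p = 0.439).

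The other sources of cGMP were thinly counted. The 3 further membrane cyclases in the table, Gucy2c, Gucy2d and Gucy2g, were too low to test. The subunits of the soluble, nitric oxide-activated cyclase went in opposite directions. Gucy1a1 was 2.91-fold higher in articular cartilage, at 4.43 and 5.52 against 2.00 and 1.37 CPM (adjusted p = 0.00955). Gucy1b1 was 2.14-fold lower in articular cartilage, at 2.75 and 4.75 against 8.35 and 7.67 CPM (adjusted p = 0.0178), but not past the threshold without articular replicate 1 (adjusted p = 0.105) or without xiphoid replicate 1 (adjusted p = 0.0560). Nos3, the nitric oxide synthase of endothelium, was at 3.83 and 4.11 CPM in articular against 7.41 and 8.22 CPM in xiphoid cartilage (adjusted p = 0.0193). Its adjusted p was 0.0525 without articular replicate 1 and 0.0997 without xiphoid replicate 2. Of 12 endothelial markers 6 were higher and 1 lower on the xiphoid side, against 24.5% higher and 25.0% lower there over all tested genes. The part of endothelial cells in the level of Nos3 was not tested. Nos2, the inducible synthase, had 17 and 22 counts in the articular libraries against 0 and 4 in the xiphoid libraries (adjusted p = 0.00814). All of its xiphoid counts came from replicate 2. Without that library the fitted log2 fold change was 7.33 instead of 3.17, on a count of 0, and without xiphoid replicate 1 it was 2.13.

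Phosphodiesterases, which break down cGMP, were called in 5 of 10 tested cases, 2 toward articular and 3 toward xiphoid cartilage, a share near the 49.5% over all tested genes. Pde11a, which hydrolyses both cAMP and cGMP, had 102 and 83 counts in the articular libraries against 0 and 3 in the xiphoid libraries. The ratio of its pooled levels, articular over xiphoid, was 60.4, and its exact 95% counting interval ran from 20.3 to 295 (edgeR adjusted p = 6.86e-06). All of its xiphoid counts came from replicate 2, and without that library the fitted log2 fold change was 9.56 instead of 5.80, on a count of 0. Pde10a, another dual-specificity enzyme, was 19.9-fold higher in articular cartilage, at 8.85 and 6.81 against 0.470 and 0.274 CPM (adjusted p = 2.07e-05). Pde2a, which cGMP itself stimulates, was 2.16-fold lower in articular cartilage, at 7.66 and 6.68 against 16.6 and 14.4 CPM (adjusted p = 0.00259). Pde3b, an enzyme of fat cells that cGMP inhibits, was at 6.22 and 7.32 CPM in articular against 16.9 and 17.5 CPM in xiphoid cartilage (adjusted p = 5.86e-04). The xiphoid libraries also held more adipocyte marker RNA, as given beside Npr1, and their part in the level of Pde3b was not tested. Pde5a, the cGMP-specific enzyme, was at 10.3 ± 2.10 CPM in articular cartilage against 9.47 ± 0.411 CPM in xiphoid cartilage and did not pass (log2 fold change 0.12, SE 0.26, adjusted p = 0.728). Of the exporters of cyclic nucleotides, Abcc4 was 1.93-fold higher in articular cartilage (means of 13.9 ± 1.58 against 7.23 ± 1.41 CPM, n = 2 each, adjusted p = 0.00963), but not past the threshold without xiphoid replicate 1 (adjusted p = 0.0801). Abcc5 was at 13.7 ± 1.74 CPM in articular cartilage against 19.4 ± 0.504 CPM in xiphoid cartilage and did not pass (adjusted p = 0.0646), but passed without articular replicate 2 (adjusted p = 0.0333).

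Among 11 tested substrates and effectors of the kinases, 5 were higher in articular and 2 higher in xiphoid cartilage. The called share was 63.6%, against 49.5% over all tested genes. Gsk3b, a kinase that Prkg2 phosphorylates in chondrocytes, was at 43.2 and 44.4 CPM in articular against 9.88 and 8.22 CPM in xiphoid cartilage (adjusted p = 1.89e-06, log2 fold change 2.27, SE 0.20). Ppp1r12a, the targeting subunit of myosin phosphatase and a partner of Prkg1, was 2.31-fold higher in articular cartilage (means of 34.1 ± 3.38 against 14.8 ± 0.788 CPM, n = 2 each, adjusted p = 2.62e-04). Mrvi1, the Prkg1 substrate also called IRAG, was at 6.34 and 5.52 CPM in articular against 48.3 and 46.6 CPM in xiphoid cartilage (adjusted p = 2.09e-07, log2 fold change -2.995, SE 0.21). Rgs2, a brake on G protein signalling that Prkg1 activates, was 5.07-fold lower in articular cartilage, at 2.63 and 3.47 against 14.7 and 16.3 CPM (adjusted p = 3.25e-05). Of 10 tested smooth muscle and pericyte markers 5 were higher in xiphoid and 2, Abcc9 and Rgs5, higher in articular cartilage. The shares over all tested genes were 24.5% and 25.0%. The sums of these markers are given beside Prkg1, and their part in Mrvi1 and Rgs2 was not tested. Vasp, the classic substrate of both kinases, was at 86.5 and 45.0 CPM in the articular libraries against 61.7 and 60.7 CPM in the xiphoid libraries and did not pass (adjusted p = 0.769). The articular libraries decided its direction. Without articular replicate 1 Vasp was called toward xiphoid cartilage (log2 fold change -0.45, adjusted p = 0.0392), and without articular replicate 2 toward articular cartilage (0.498, adjusted p = 0.0139), so neither direction can be given.

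In the branch that CNP opposes in growth cartilage, 1 of 5 tested genes was called toward articular and 2 toward xiphoid cartilage. That was 60% of those tested, against 49.5% over all tested genes. The growth-restraining receptor gene Fgfr3 was at 430 and 370 CPM in articular against 1110 and 938 CPM in xiphoid cartilage (adjusted p = 2.32e-05). Mapk3, which encodes the MAP kinase ERK1, was at 131 and 165 CPM in articular against 668 and 790 CPM in xiphoid cartilage (adjusted p = 4.25e-07, log2 fold change -2.30, SE 0.17). Map2k1, the kinase upstream of it, was 1.41-fold higher in articular cartilage (adjusted p = 0.0152), but not past the threshold without xiphoid replicate 1 (adjusted p = 0.127) or xiphoid replicate 2 (adjusted p = 0.0877). Dusp6, a phosphatase induced by this branch, was at 14.9 ± 1.97 CPM in articular cartilage against 14.1 ± 2.51 CPM in xiphoid cartilage and did not pass (adjusted p = 0.814). In the RefSeq annotation Gsk3b overlaps Nr1i2, Pde3b overlaps Cyp2r1, Ide overlaps Kif11 and Nos3 overlaps Atg9b, so these counts share the uncertainty of Prkg1. The same holds for Pde11a with Cyct and the pseudogene Anp32a-ps1, for Pde2a with the microRNA gene Mir139, and for Pcsk6, Pde10a and Mme, which overlap the pseudogenes Rps29-ps9, Rpl23a-ps4 and Eif5-ps3. Nos2 and several others of the named genes overlap loci without a gene name.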

How the data were processed

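The authors deposited an expected count for each gene in each library (3.91% of values were not whole), which was not normalized, as the file headers and the values show. Build rn6 and the tools RSEM 1.2.12, Bowtie2 2.2.6, HISAT2 2.0.4 and StringTie 1.2.1 are named in the submitters' processing notes, without their roles. The use of strand in counting is not stated in the labels or headers. The counts were rounded and filtered with filterByExpr, which left 11202 genes tested and 2352 untested. After TMM scaling, the tissues were compared with edgeR 4.0.16 (quasi-likelihood, R 4.3.3), tissue being the model term, with Benjamini-Hochberg adjustment over all genes tested and 2-sided p-values. The standard error is the log2 fold change divided by the root of the test's F. The biological coefficient of variation was 14.1%, on 2 residual degrees of freedom. Alternatives included DESeq2 1.42.0 and limma-voom (limma 3.58.1). The procedure was tested on simulated data in which few genes differed. In this comparison 49.5% of tested genes were called, so that test cannot show how often calls are wrong here.

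The members and lists were chosen with earlier results of these data known. From each role of the pathway list the text names up to 4 called genes whose higher tissue averages 5 CPM or more. Gucy1a1, Nos2 and the genes given as not past the threshold were named after their values were seen, and the hypertrophy list was added then. A test of FPKM or TPM values, planned for tables that hold them, was not run. RefSeq (GRCr8) was used for overlaps only (Prkg2 and Npr1 each overlap an unnamed locus), and no coordinates are given because the build differs. Some genes of the MAP kinase branch are not reported here.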

Additional observations from a re-analysis of the deposited data

How the results depend on the processing

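The log2 fold change of Prkg2 kept its direction and call in all 13 alternatives run. The count of members called was 2 with upper-quartile scaling and 2 with a mean CPM of at least 5, because Npr2 then passed (log2 fold change 0.41 and 0.39). The replicate numbers are not said to mark a shared animal, and the deviations of same-numbered libraries correlated at 0.24 over tested genes, with only 2 pairs. With replicate number as a block, 6828 genes and 3 members were called, adding Npr2 (0.36, adjusted p = 0.00478) and Npr1 (-0.77, adjusted p = 0.0284). Leaving out each library in turn gave 4369 to 5975 genes called against 5544, 1 member throughout, 20 to 25 pathway genes against 25, and log2 fold changes of 0.35 to 0.41 for Npr2, -0.92 to -0.58 for Npr1, -0.27 to 0.22 for Prkg1 and 6.82 to 7.04 for Prkg2. Prkg1 changed direction without xiphoid replicate 1 (0.22) without passing in any fit, and the log2 ratio of Npr3 did so as well (0.18, range -1.36 to 0.18); the cause was not tested. The log2 difference of the Npr2 to Npr3 ratio ran from 0.30 to 1.76 and that of Prkg2 to Prkg1 from 6.63 to 7.34. Of 334 values for the 26 pathway genes named with a test, 314 kept direction and call, 12 lost the call, 3 gained one (Vasp, and Abcc5 in 2 alternatives, the block being one) and 5 reversed. The reversed values, each of a gene not called in the comparison as reported, came with libraries left out, where the log2 fold change ran from -0.33 to 0.0037 for Furin, from -0.098 to 0.32 for Pde5a, from -0.45 to 0.498 for Vasp and from -0.070 to 0.29 for Dusp6 (-0.069 in another). With DESeq2, which called 4651 genes and 20 of the 39 pathway genes, the 5 lost were Gucy1b1, Nos3, Ide, Itpr1 and Trpc6. Depth limits Nppc and Npr3, with 7 and 41 counts in all.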
